A study of Mus musculus with 16 samples.

Results

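The 9 genes described here belong to fibroblast growth factor (FGF) signalling and were measured in astrocytes sorted from the spinal cord and thalamus of young mice. They are the FGF receptors Fgfr1, Fgfr2 and Fgfr3, the feedback inhibitors Spry1, Spry2, Spry4 and Spred1, and the ETS transcription factors Etv4 and Etv5. They were chosen by symbol, as the 9 of 39171 features in the expression table that encode FGF receptors of this tissue or commonly read out signalling through the receptors. The 4 groups were reporter-positive and reporter-negative astrocytes of spinal cord and reporter-positive and reporter-negative astrocytes of thalamus, with 4 libraries each. Every group came from C57BL/6 mice at postnatal day 15 that carried 1 copy of a reporter placing mCherry under the control of the interleukin-33 gene together with an Aldh1l1-GFP reporter of astrocytes, and each of the 4 mice gave 1 library to each group. Positive and negative refer to the interleukin-33 reporter, and the sources used here do not say how the GFP signal entered the sort. Values are FPKM, fragment counts scaled to transcript length and library size, which is a level per length and allows levels of different genes to be set side by side.

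FGF ligands bind receptor tyrosine kinases at the cell surface with heparan sulfate proteoglycans as partners, and the activated receptor recruits adaptors that switch on Ras proteins and the Raf, MEK and ERK kinases. ERK signalling induces the ETS factors Etv4 and Etv5 and, with them, inhibitors that act back on the pathway, among them the Sprouty and Spred proteins and the ERK phosphatase Dusp6. In the central nervous system Fgfr3 is widely used as a marker of the astrocyte lineage, Fgfr2 is found in astrocytes and in the oligodendrocyte lineage, and Fgfr1 is broadly expressed, neurons included.

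The promoter of Fgfr3 is shown because Fgfr3 was the member that differed between the sorted fractions, that of Spry2 because it was the only member promoter matched in the reference with CCGGAA, and that of Etv5 because its first listed start held the most copies of CCAAT. The sequences are RefSeq entries on GRCm38.p6, from 250 bases before to 50 bases after an annotated start, and entries were matched for 6 of the 9 members. The motifs searched, each on either strand, were CCGGAA and AGGAAG, which hold the GGAA core of ETS sites, and CCAAT, a common promoter box. Capitals mark their matches, and ATTGG is CCAAT on the other strand.
Fgfr3, chr5:33721474-33721773, plus strand: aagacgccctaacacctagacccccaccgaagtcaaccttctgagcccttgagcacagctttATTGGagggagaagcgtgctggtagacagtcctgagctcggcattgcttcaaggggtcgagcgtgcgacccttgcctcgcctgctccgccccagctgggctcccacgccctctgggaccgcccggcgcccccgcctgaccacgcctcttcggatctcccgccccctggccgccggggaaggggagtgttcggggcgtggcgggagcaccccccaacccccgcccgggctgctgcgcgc
Spry2, chr14:105896770-105897069, minus strand: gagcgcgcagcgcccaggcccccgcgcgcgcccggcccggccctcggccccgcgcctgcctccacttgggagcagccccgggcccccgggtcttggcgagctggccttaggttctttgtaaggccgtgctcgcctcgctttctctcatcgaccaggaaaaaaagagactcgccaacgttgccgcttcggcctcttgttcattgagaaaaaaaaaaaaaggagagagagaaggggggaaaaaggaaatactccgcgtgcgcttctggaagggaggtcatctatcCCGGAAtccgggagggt
Etv5, chr16:22439521-22439820, minus strand: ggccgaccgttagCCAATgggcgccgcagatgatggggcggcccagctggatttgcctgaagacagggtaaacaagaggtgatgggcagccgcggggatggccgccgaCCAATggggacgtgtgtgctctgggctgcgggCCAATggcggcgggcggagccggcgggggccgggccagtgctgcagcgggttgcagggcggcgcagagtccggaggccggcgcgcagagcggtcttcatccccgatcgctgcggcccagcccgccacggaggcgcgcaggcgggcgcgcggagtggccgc

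Etv5 held 3 CCAAT boxes and Fgfr3 held 1, and 37.4% of all 32851 promoter windows held at least 1. CCGGAA was in 14.9% of those windows and AGGAAG in 35.4%. AGGAAG was in none of the windows shown; among the members it had 2 matches at Fgfr2 and 1 at the other listed start of Etv5. These are matches of letters and say nothing of binding.

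Among all genes, the libraries had summed FPKM between 984985.9 and 2344483 and 13260 to 14731 features at 1 FPKM or more; read totals were not analysed here. Mitochondrial transcripts made up 43.7 to 49.2% of the summed FPKM in spinal cord positive libraries and 46.7 to 71.8% in spinal cord negative libraries, and 51.3 to 56.7% in thalamus positive and 56.7 to 73.9% in thalamus negative libraries. Il33 itself, the gene behind the reporter, averaged 27.9 ± 3.49 FPKM in positive and 24.6 ± 7.93 FPKM in negative cells of spinal cord (adjusted p = 0.559), and 27.4 ± 3.41 and 18.6 ± 6.01 FPKM in positive and negative cells of thalamus (adjusted p = 0.0736; SD, n = 4 each). The transcript therefore did not pass the test in either region, so the gate labels were not checked by it. Pan-astrocyte markers summed to 17346 to 19391 FPKM in spinal cord positive and 12658 to 15097 FPKM in spinal cord negative libraries. In thalamus they summed to 8319 to 10069 FPKM in positive and 9352 to 13630 FPKM in negative libraries. None of the 16 stayed under 1 FPKM throughout a group. Markers of other cells were higher in the negative gate. The 15 oligodendrocyte markers summed to 180.4 to 205 FPKM in spinal cord positive and 4812 to 4950.2 FPKM in spinal cord negative libraries, and to 95.9 to 139 and 673 to 1340.5 FPKM in positive and negative libraries of thalamus. The 13 ependymal markers summed to 16.2 to 23.6 and 127 to 174 FPKM in positive and negative libraries of spinal cord, and to 15.6 to 20.6 and 383 to 694 FPKM in those of thalamus. Mag, Opalin, Myrf, Pdgfra and Tekt1 stayed under 1 FPKM in every positive library of both regions. The part of such cells in the gate differences below was not tested, and in these bulk samples fewer cells of a type and less RNA per cell cannot be told apart.

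Differences are given on the log2(FPKM + 1) scale, which understates those of low genes, and a gene is called where its limma p-value, adjusted over all 16340 features tested, is under 0.05. All 9 genes passed the filter on low values. The share of all features called was 19.6% between the gates in spinal cord and 25.2% between the gates in thalamus, and 1 of the 9 genes was called in each, Fgfr3 both times. It was 6.1% between spinal cord and thalamus in positive cells, with 0 of the 9 called by limma (2 at an unadjusted p under 0.05, Fgfr3 and Spry1), and 9.81% in negative cells, with 1 called. The interaction test, which sets the gate difference of spinal cord against that of thalamus, called 2.56% of all features and 0 of the 9 genes (0 also at an unadjusted p under 0.05). The median difference of the 9 genes between gates was 0.30 in spinal cord, beside 0.09 over all features, and 0.12 in thalamus, beside 0.06. Rescaling the libraries to their protein-coding nuclear FPKM, which takes the mitochondrial transcripts out of the total, moved the median of all features by 0.255 for the gates of thalamus, by 0.082 for those of spinal cord, by -0.174 for the interaction and by -0.215 between regions in positive cells. Of the features called, 45.9% were higher in positive cells of thalamus and 70.9% after the rescaling; for positive cells of spinal cord against thalamus it was 69.2% and 30.3%, and for the interaction 44.02% and 28.9%.

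Fgfr3 was the most abundant of the receptors in positive cells and was higher in positive than in negative cells of both regions. Its gene lies on chromosome 5 (GRCm38, 33721674 to 33737068, plus strand). In spinal cord, mice 1 to 4 had 306, 359, 281 and 264 FPKM in the positive fraction, against 115, 105, 95.4 and 79.2 FPKM in the negative fraction. In thalamus they had 199.8, 258, 178 and 171 FPKM in the positive fraction, against 66.1, 108, 128 and 97.4 FPKM in the negative fraction. Every positive library was above every negative library, and mouse 2 had the highest positive library in both regions. The spinal cord means were 303 ± 41.6 FPKM in positive and 98.6 ± 15.1 FPKM in negative cells (SD, n = 4 each), a ratio of 3.07 and a log2 difference of 1.61 ± 0.20 (SE, adjusted p = 5.82e-05). The thalamus means were 202 ± 39.5 FPKM in positive and 99.7 ± 25.8 FPKM in negative cells, a ratio of 2.03 and a log2 difference of 1.03 ± 0.20 (adjusted p = 0.00213). The difference was positive in 4 of 4 mice in each region and was called in each of the 20 alternative settings, with the log2 difference between 0.85 and 1.22 in thalamus and between 1.51 and 1.69 in spinal cord when single libraries or mice were left out. After the protein-coding rescaling it was 1.72 in spinal cord and 1.36 in thalamus. Neither the part of the astrocyte markers nor that of the other cell types' markers in this difference was tested.

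Across the groups, Fgfr3 ran from spinal cord positive through thalamus positive to the negative cells of both regions. Negative cells of spinal cord and thalamus were level, with a log2 difference of 0.01 ± 0.20 (adjusted p = 0.993). Spinal cord positive libraries all lay above thalamus positive libraries, a ratio of means of 1.50, but the log2 difference of 0.59 ± 0.20 missed the threshold (adjusted p = 0.116). It passed when the fit held only those groups (adjusted p = 0.0304) and shrank to 0.31 after the protein-coding rescaling. The gate difference was 0.58 ± 0.29 larger in spinal cord than in thalamus, with a 95% interval of -0.03 to 1.19 (adjusted p = 0.373). The authors' deposited table, which gives 1 comparison of positive with negative cells, listed Fgfr3 as the only one of the 9 genes among its 444 features, with a log2 fold change of 1.30 and an adjusted p of 4.2e-13.

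Fgfr2 did not separate the gates. Levels in spinal cord were 103, 105, 86.3 and 99.1 FPKM in positive libraries, against 109, 111, 84.99 and 105 FPKM in negative libraries. Levels in thalamus were 82.7, 87.6, 89.6 and 86.9 FPKM in positive libraries, against 92.8, 104, 94.2 and 82.5 FPKM in negative libraries. The groups overlapped in every comparison, and mouse 3 was the lowest in both spinal cord fractions. The log2 difference between gates was -0.06 in spinal cord, with a 95% interval of -0.32 to 0.21, and -0.10 in thalamus, with an interval of -0.37 to 0.16. These intervals leave out changes of the size seen for Fgfr3; the protein-coding rescaling turned both to small positive values, 0.05 and 0.22. On GRCm38 the RefSeq gene runs from 130162451 to 130266808 of chromosome 7 on the minus strand with no overlapping gene, whereas the GENCODE vM21 model runs on to 133123350 and overlaps 69 other genes. The sources used here do not name the model used for counting, so reads shared with those genes cannot be told apart.

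Fgfr1 was the least abundant of the receptors and was lower in spinal cord than in thalamus. It lies on chromosome 8 (25513654 to 25575718, plus strand) and overlaps the antisense gene Gm16159, which had 0.374 to 12.0 FPKM, and no source used here says that the counting used strand. Spinal cord negative libraries had 15.9, 23.2, 24.5 and 29.1 FPKM in mice 1 to 4, against 31.95, 36.5, 34.4 and 40.1 FPKM in thalamus negative libraries. Spinal cord positive libraries had 24.6, 27.5, 29.9 and 27.3 FPKM, against 35.3, 33.3, 36.3 and 32.99 FPKM in thalamus positive libraries. All spinal cord libraries lay below all thalamus libraries, in both fractions. Among negative cells the means were 23.2 ± 5.48 FPKM in spinal cord and 35.7 ± 3.48 FPKM in thalamus (SD, n = 4 each), a log2 difference of -0.63 ± 0.16 (adjusted p = 0.0202). That call was lost in 4 of 20 alternative settings: without mouse 2 (adjusted p = 0.119), without mouse 3 (0.091), without mouse 4 (0.0589) and when the fit held only those groups (0.217). Among positive cells the means were 27.3 ± 2.16 FPKM in spinal cord and 34.5 ± 1.58 FPKM in thalamus, and the log2 difference of -0.33 ± 0.16 did not pass (adjusted p = 0.307), but it did with only those groups (0.0235) and, at -0.60, after the protein-coding rescaling (0.0487). The lowest Fgfr1 value, in the spinal cord negative library of mouse 1, belonged to the library with 71.8% mitochondrial transcripts, the highest share among spinal cord libraries; without that library the log2 difference among negative cells was -0.47. Between gates Fgfr1 differed by 0.26 ± 0.16 in spinal cord (adjusted p = 0.287) and by -0.05 ± 0.16 in thalamus (adjusted p = 0.854).

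**Figure D1:**
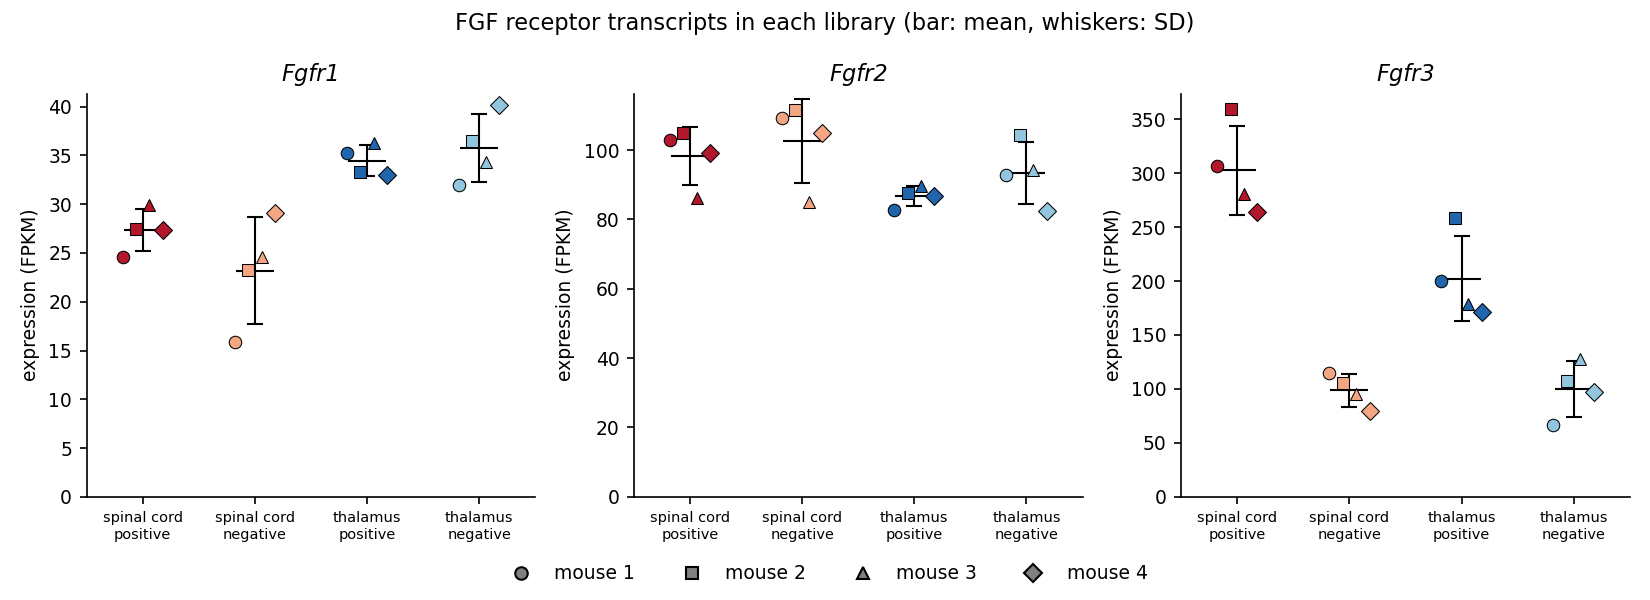
FPKM of Fgfr1, Fgfr2 and Fgfr3 (y axes, from 0) in the 16 libraries, with the 4 groups along the x axis, 1 symbol per mouse, a bar at the mean and whiskers of 1 SD (n = 4). Fgfr3 lies between 264 and 359 FPKM in spinal cord positive libraries and between 79.2 and 115 FPKM in spinal cord negative ones, Fgfr2 overlaps between all groups, and Fgfr1 is lower in spinal cord than in thalamus.

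The make-up of the receptor pool followed from these levels and is given as a description. Fgfr3 made up 70.5 ± 2.24% of the summed FPKM of the 3 receptors in spinal cord positive and 43.8 ± 4.76% in spinal cord negative libraries, and 62.1 ± 4.45% and 43.02 ± 6.30% in positive and negative libraries of thalamus (SD, n = 4 each). The summed FPKM was 428 ± 46.4 in spinal cord positive and 224 ± 17.97 in spinal cord negative libraries, and 323 ± 38.96 and 229 ± 29.8 in positive and negative libraries of thalamus. In positive libraries Fgfr3 stood at 1.97 to 3.42 times Fgfr2, whereas in negative libraries the ratio lay between 0.712 and 1.36. Fgfr1 held 6.45% and 10.5% of the pool in positive and negative cells of spinal cord, and 10.8% and 15.8% in positive and negative cells of thalamus. Fgfr4, the remaining receptor with a kinase domain, did not pass the filter on low values, with at most 0.0902 FPKM.

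**Figure D2:**
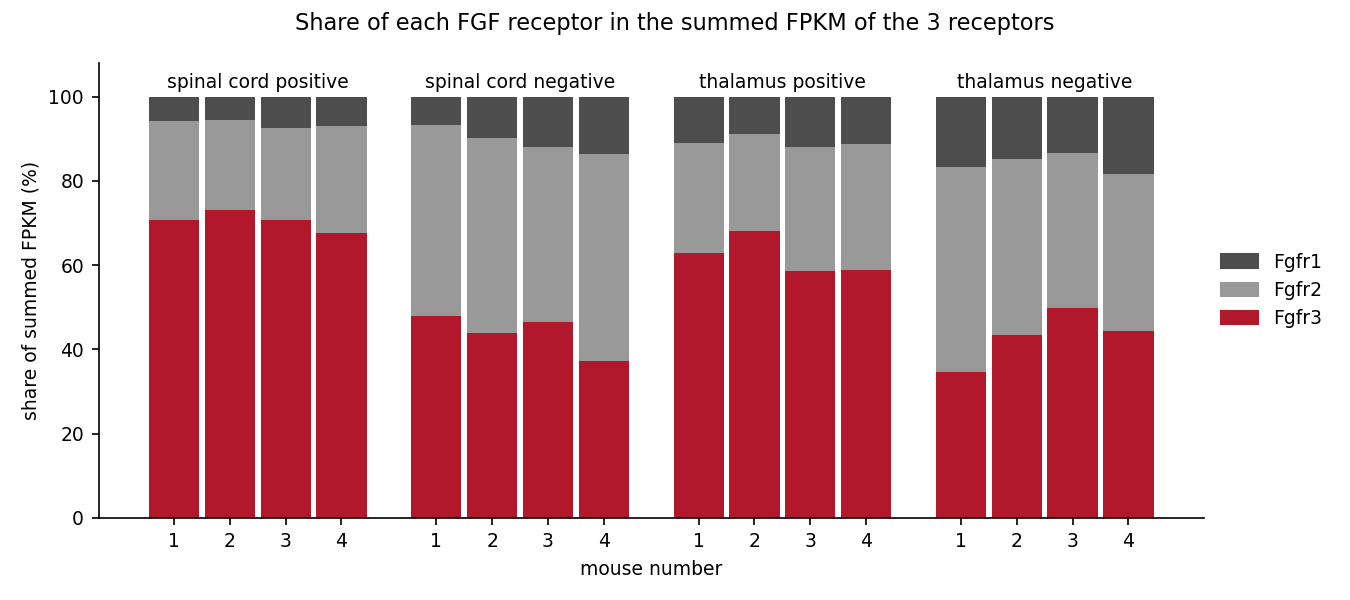
Share of Fgfr1, Fgfr2 and Fgfr3 in their summed FPKM (y axis, percent), with 1 stacked bar per library and the mouse number on the x axis. Fgfr3 takes 58.6 to 73.1% of the pool in the positive libraries and 34.6 to 49.9% in the negative ones.

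Spry1, Spry2, Spry4 and Spred1 encode inhibitors that bind components between the receptor and Ras or Raf. None of them was called in any of the 5 comparisons, although some groups did not overlap. Between the gates of spinal cord, 4 of the 9 genes had groups that did not overlap (Fgfr3, Spry1, Spry4 and Etv5), beside 27.9% of all features; between those of thalamus it was 1, Fgfr3, beside 25.8%. Between regions it was 3 in positive cells (Fgfr1, Fgfr3 and Spry1), beside 29.7%, and 1 in negative cells, Fgfr1, beside 9.06%.

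Spry1 (chromosome 3, 37639947 to 37644598, plus strand) was a low transcript with its lowest values in spinal cord positive cells. It had 1.77, 1.49, 1.72 and 1.56 FPKM in spinal cord positive libraries of mice 1 to 4, against 2.91, 7.26, 3.25 and 4.24 FPKM in spinal cord negative libraries. In the thalamus, positive cells had 5.88, 2.58, 3.85 and 6.08 FPKM, against 2.22, 1.60, 10.7 and 5.15 FPKM in negative cells. The spinal cord positive libraries thus lay below the libraries of the other gate and below the positive libraries of thalamus. Neither difference was called: -0.98 ± 0.40 against spinal cord negative cells (adjusted p = 0.106) and -1.03 ± 0.40 against thalamus positive cells (adjusted p = 0.174), although both passed when the fit held only the groups compared (0.0296 and 0.0124). In thalamus the gates overlapped, with a log2 difference of 0.12 ± 0.40, and the difference of gate differences was -1.10 ± 0.57 (adjusted p = 0.401).

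Spry2 (chromosome 14, 105891947 to 105896819, minus strand) was the most abundant Sprouty transcript and varied more between mice than between groups. In the spinal cord, positive cells had 46.4, 26.7, 34.5 and 27.6 FPKM, against 59.7, 21.0, 23.9 and 23.8 FPKM in negative cells. The positive fraction of thalamus had 36.9, 38.5, 23.3 and 52.8 FPKM, against 40.3, 43.99, 21.6 and 42.8 FPKM in the negative fraction. Mouse 1 was the highest in both spinal cord fractions and mouse 3 the lowest in both thalamus fractions. The log2 difference between gates was 0.17, with a 95% interval of -0.55 to 0.90, in spinal cord. In thalamus it was 0.02, with an interval of -0.71 to 0.75. Changes within these intervals are not excluded.

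Spry4 (chromosome 18, 38586247 to 38601415, minus strand) was low throughout, with means of 5.72 ± 0.495 FPKM in spinal cord positive and 3.48 ± 1.43 FPKM in spinal cord negative cells, and of 5.79 ± 1.22 and 4.93 ± 2.57 FPKM in positive and negative cells of thalamus (SD, n = 4 each). In spinal cord its positive libraries, at 5.20, 6.15, 5.39 and 6.13 FPKM, lay above its negative libraries, at 4.92, 3.05, 1.67 and 4.28 FPKM. The log2 difference of 0.64 ± 0.32 was not called (adjusted p = 0.176). In thalamus it was 0.30 ± 0.32, with groups that overlapped. Spry4 is overlapped by the small RNA genes Gm27369 and Gm27804 on the opposite strand, which had 0 to 858 and 0 to 42.6 FPKM.

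Spred1 (chromosome 2, 117121374 to 117182279, plus strand), which blocks the activation of Raf by Ras, was among the steadiest of the 9 genes. The positive fraction of spinal cord had 38.8, 40.5, 42.9 and 40.1 FPKM, against 42.4, 28.1, 31.8 and 30.5 FPKM in the negative fraction. Mouse 1 was the exception in spinal cord, with the only negative library above any positive one. The log2 difference of 0.30 ± 0.14 was not called (adjusted p = 0.162), but without that library it was 0.42 and passed (adjusted p = 0.0388), as it did after the protein-coding rescaling (0.41, adjusted p = 0.0348). In thalamus the means were 40.3 ± 5.32 and 43.7 ± 3.94 FPKM in positive and negative cells, a log2 difference of -0.12 ± 0.14. Between regions, negative cells had 33.2 ± 6.31 FPKM in spinal cord and 43.7 FPKM in thalamus, a difference of -0.40 ± 0.14 (adjusted p = 0.0983) that passed without the same library (-0.52, adjusted p = 0.0213) and after the protein-coding rescaling (-0.47, adjusted p = 0.0301).

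The ETS factors Etv4 and Etv5, which ERK signalling induces and which carry its output to target genes, were not called between gates or regions. Etv4 (chromosome 11, 101769742 to 101785371, minus strand) had 16.9, 12.9, 15.1 and 18.3 FPKM in the positive fraction of spinal cord, against 8.17, 18.3, 17.9 and 8.11 FPKM in the negative fraction. Levels in thalamus were 14.5, 6.47, 9.41 and 17.0 FPKM in positive libraries, against 1.45, 2.34, 4.83 and 17.2 FPKM in negative libraries. In thalamus the negative libraries of mice 1 to 3 lay below every positive library, and that of mouse 4 was the highest of all 8. The log2 difference in thalamus was 1.16 ± 0.51 (adjusted p = 0.109); it became 1.74 and passed without the negative library of mouse 4 (adjusted p = 0.00569), passed without mouse 4 altogether (1.55, adjusted p = 0.0292) and after the protein-coding rescaling (1.45, adjusted p = 0.0432). Leaving out that library likewise moved the difference between spinal cord and thalamus negative cells, 1.28 ± 0.51 (adjusted p = 0.137), to 1.87 (adjusted p = 0.00696). In spinal cord the gates overlapped, with a log2 difference of 0.33 ± 0.51.

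Etv5 (chromosome 16, 22381309 to 22439719, minus strand) was the more abundant of the ETS factors. Levels in spinal cord were 63.7, 79.7, 70.3 and 62.7 FPKM in positive libraries, against 39.7, 28.7, 37.3 and 56.0 FPKM in negative libraries. In the thalamus, positive cells had 71.3, 33.996, 49.0 and 53.7 FPKM, against 26.8, 23.3, 58.3 and 84.5 FPKM in negative cells. In spinal cord the gates did not overlap, and in thalamus the negative libraries held both the lowest and the highest value. The spinal cord means were 69.1 ± 7.82 FPKM in positive and 40.4 ± 11.4 FPKM in negative cells, a log2 difference of 0.79 ± 0.35 that was positive in 4 of 4 mice but not called (adjusted p = 0.134), except when the fit held only those groups (0.0286). In thalamus it was 0.25 ± 0.35, with a 95% interval of -0.50 to 1.01. In the thalamus negative group, mouse 4 had the highest Etv4, Etv5 and Spry4, and mice 1 and 2 had the lowest Etv4, Etv5 and Spry1.

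**Figure D3:**
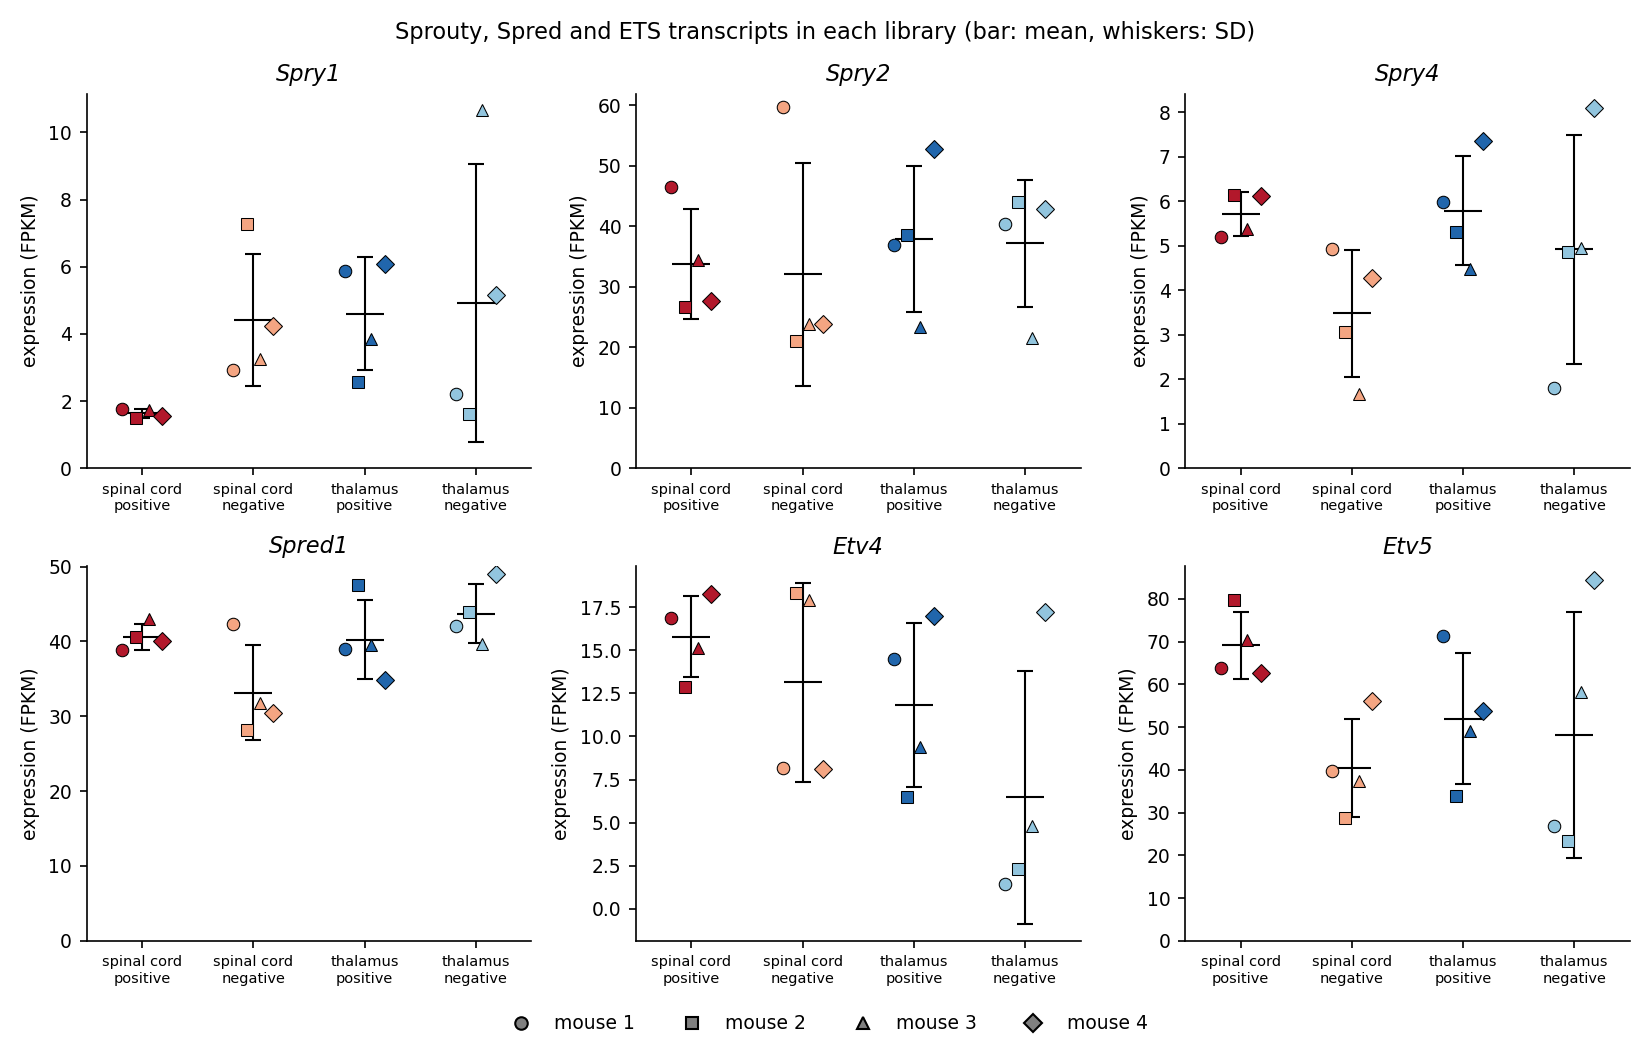
FPKM of Spry1, Spry2, Spry4, Spred1, Etv4 and Etv5 (y axes) in the 16 libraries, with the 4 groups along the x axis, 1 symbol per mouse, a bar at the mean and whiskers of 1 SD (n = 4). The spread between mice is widest in thalamus negative cells for Spry1, Etv4 and Etv5, and Spry1 in spinal cord positive cells stays between 1.49 and 1.77 FPKM.

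**Figure D4:**
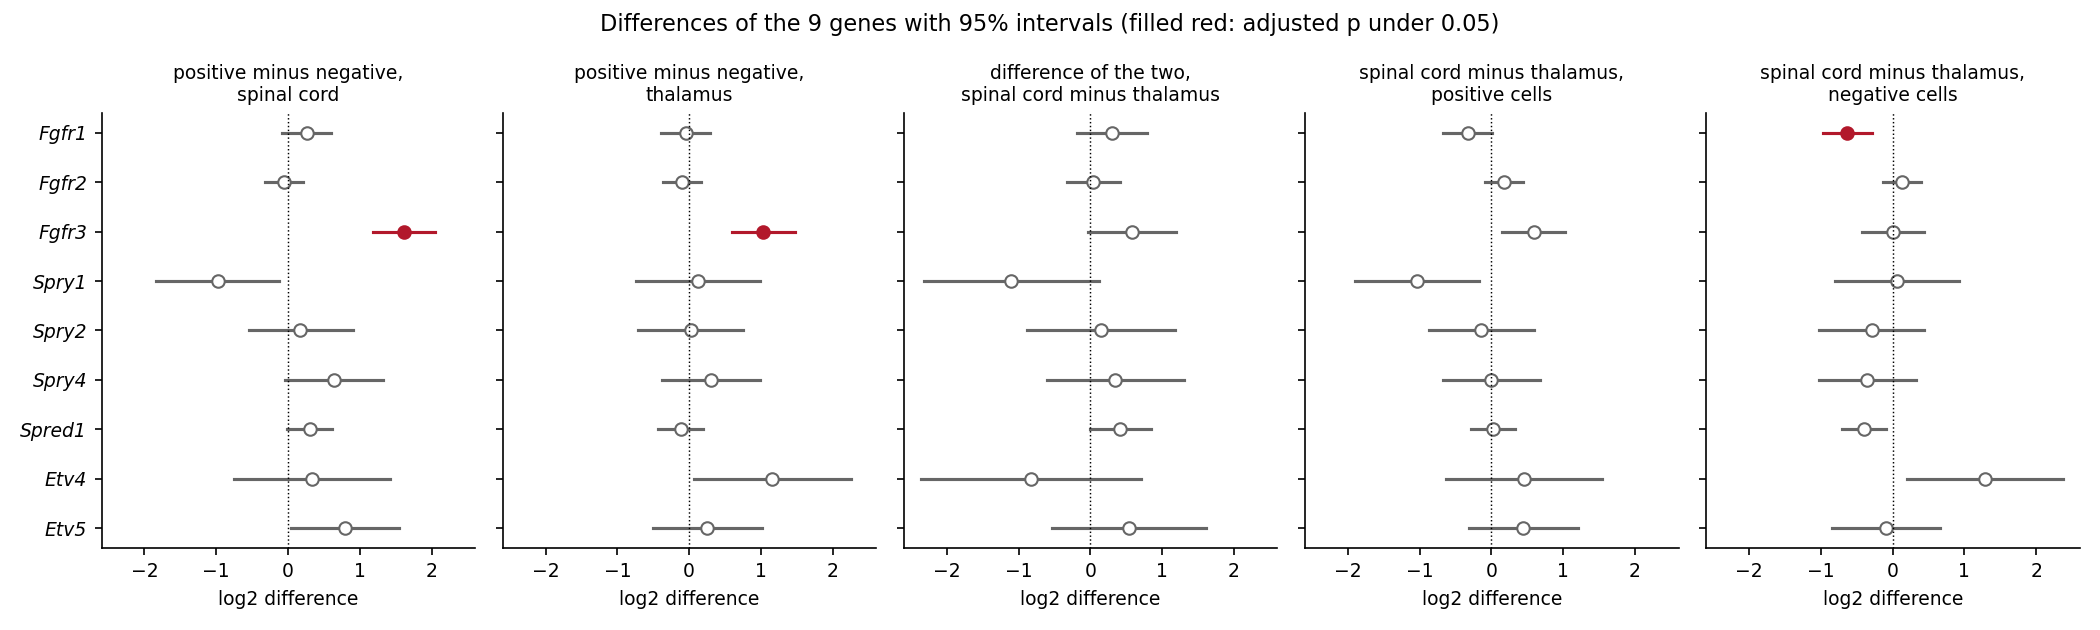
Log2 differences of the 9 genes (points) with 95% intervals (lines) in the 5 comparisons, filled red where the adjusted p is under 0.05. Fgfr3 is called between gates in spinal cord (1.61) and thalamus (1.03), and Fgfr1 between regions in negative cells (-0.63).

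The spread between mice differed among the 9 genes. The coefficient of variation within a group was 3.32 to 11.8% for Fgfr2 and 4.26 to 19.0% for Spred1, against 8.32 to 84.2% for Spry1 and 14.8 to 113% for Etv4. For Fgfr3, Spry1, Spry4, Etv4 and Etv5 it was lowest in spinal cord positive cells and higher in negative than in positive cells of each region. Fgfr1 and Fgfr2 were likewise more variable in negative than in positive cells of each region. The SE of the log2 differences between 2 groups was 0.12 to 0.20 for the receptors and 0.14 for Spred1, against 0.32 to 0.51 for the Sprouty genes and ETS factors.

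The other genes of the pathway were taken from lists of their roles. Of 18 FGF ligand genes, 6 passed the filter on low values. In spinal cord limma called none between gates (0 at an unadjusted p under 0.05), beside 19.6% of all features. In positive cells of thalamus 0 rose and 2 fell, beside 25.2%. Fgf1, a ligand that binds all FGF receptors, had 86.2 ± 6.59 and 78.4 ± 9.43 FPKM in positive and negative cells of spinal cord (log2 difference 0.14 ± 0.14) and 38.98 ± 3.37 and 69.8 ± 11.9 FPKM in those of thalamus (-0.81 ± 0.14, adjusted p = 0.000894; -0.49, adjusted p = 0.0132, after the protein-coding rescaling). The gate difference of Fgf1 itself differed between regions, by 0.95 ± 0.20 (adjusted p = 0.0204), a call lost in 8 of 27 alternative settings (adjusted p 0.0509 to 0.155), among them the protein-coding rescaling (0.75, adjusted p = 0.0514) and leaving out any 1 of the mice. Fgf18, a ligand with a preference for Fgfr3 among others, had 1.69 ± 0.371 FPKM in positive and 12.5 ± 7.93 FPKM in negative cells of thalamus (-2.10 ± 0.41, adjusted p = 0.00186). Fgf2 had 13.1 ± 5.20 and 12.3 ± 9.83 FPKM in positive and negative cells of spinal cord and was not called.

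Of 12 other receptors and membrane partners, 8 passed the filter. In positive cells of spinal cord 2 rose, beside 19.6% of all features called. With mouse as a block 3 rose, which added Sdc4 at an adjusted p of 0.021, against 0.098. In positive cells of thalamus 1 rose and 1 fell, beside 25.2%. The heparan sulfate proteoglycan Gpc2 had 4.91 ± 0.585 FPKM in positive and 1.20 ± 0.856 FPKM in negative cells of spinal cord (1.49 ± 0.27, adjusted p = 0.00115), and 4.15 ± 0.491 and 2.06 ± 0.926 FPKM in those of thalamus (0.81 ± 0.27, adjusted p = 0.039). The thalamus call of Gpc2 held in only 4 of 19 alternative settings. It was lost, among others, with mouse as a block (adjusted p = 0.0631) and without any 1 of the mice (0.0714 to 0.136). The related Gpc4 had 28.5 ± 3.33 and 14.3 ± 5.08 FPKM in positive and negative cells of spinal cord (1.00 ± 0.24, adjusted p = 0.00927), a call lost without mouse 3 (0.054) or mouse 4 (0.085). Sdc3, a transmembrane heparan sulfate proteoglycan, had 20.2 ± 2.81 and 46.1 ± 23.4 FPKM in positive and negative cells of thalamus (-1.03 ± 0.29, adjusted p = 0.0174), lost without mouse 3 (0.142), without mouse 4 (0.0765), with only those groups (0.0658) and after the protein-coding rescaling (0.0824).

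All 22 adaptors, Ras proteins and kinases passed the filter, with a median log2 difference of -0.16 between gates in spinal cord and -0.34 in thalamus. In positive cells 2 rose and 4 fell in spinal cord, and 0 rose and 6 fell in thalamus. These counts stand beside 19.6% and 25.2% of all features called. After the protein-coding rescaling the thalamus count was 4 and 4, beside 5219 of 16435 features called. Nras, a Ras GTPase, had 38.9 ± 3.48 and 76.1 ± 11.4 FPKM in positive and negative cells of spinal cord (-0.94 ± 0.14, adjusted p = 0.000189), and 29.02 ± 2.60 and 65.3 ± 5.78 FPKM in those of thalamus (-1.14 ± 0.14, adjusted p = 3.45e-05). Mapk3, which encodes ERK1, fell by 1.55 ± 0.30 in spinal cord (adjusted p = 0.002) and by 1.41 ± 0.30 in thalamus (adjusted p = 0.0034), the last lost without mouse 3 (0.0522) or mouse 4 (0.0525). The exchange factor Sos2 fell by 0.91 ± 0.16 in spinal cord (adjusted p = 0.00127) and by 1.01 ± 0.16 in thalamus (adjusted p = 0.000523). The adaptor Gab1 fell by 1.31 ± 0.19 in spinal cord (adjusted p = 0.000222). Ptpn11, the phosphatase SHP2, had 6.94 ± 1.72 and 21.3 ± 16.1 FPKM in positive and negative cells of thalamus (-1.24 ± 0.38, adjusted p = 0.0257); the call was lost without mouse 2, 3 or 4 (0.0787, 0.106 and 0.181), without single libraries of mouse 1 or mouse 4 (0.0524 to 0.0749) and after the protein-coding rescaling (0.0594), and the difference was -0.68 without mouse 4 and -0.81 without its negative library. The genes that fell were higher in the fraction that also held more oligodendrocyte and ependymal transcripts, whose part was not tested.

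Of 14 feedback genes outside the 9, 10 passed the filter; 3 rose and 0 fell in positive cells of spinal cord, and 4 rose and 0 fell in positive cells of thalamus, beside the 19.6% and 25.2% of all features called. With mouse as a block, Errfi1 also rose in spinal cord (0.61, adjusted p = 0.0203, against 0.104 without the block). Uncalled genes of the list lay on both sides of 0, among them Spred2 at -0.44 in spinal cord and -0.64 in thalamus. Dusp6, the phosphatase that acts on ERK in the cytoplasm, had 16.5, 18.6, 19.2 and 13.3 FPKM in spinal cord positive libraries of mice 1 to 4, against 6.26, 7.55, 7.71 and 5.52 FPKM in spinal cord negative libraries. The positive fraction of thalamus had 13.3, 11.7, 11.4 and 13.4 FPKM, against 2.64, 9.18, 7.21 and 3.47 FPKM in the negative fraction. The gates did not overlap in either region. The log2 difference of Dusp6 was 1.20 ± 0.27 in spinal cord (adjusted p = 0.00612) and 1.14 ± 0.27 in thalamus (adjusted p = 0.0072); the thalamus call was lost without mouse 1 (0.0528), without mouse 4 (0.0778) and with only those groups (0.0503).

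Lrig1, an inhibitor of receptor tyrosine kinases of the ErbB family, had 72.6 ± 4.84 and 30.6 ± 2.60 FPKM in positive and negative cells of spinal cord (1.22 ± 0.19, adjusted p = 0.000415), and 68.1 ± 6.87 and 44.9 ± 14.5 FPKM in those of thalamus (0.64 ± 0.19, adjusted p = 0.0244; 0.96 after the protein-coding rescaling). Flrt2, of a family of transmembrane proteins known to bind FGF receptors rather than to inhibit them, had 27.0 ± 1.33 and 11.3 ± 5.22 FPKM in positive and negative cells of spinal cord (1.27 ± 0.28, adjusted p = 0.00526), and 17.8 ± 4.16 and 9.06 ± 3.46 FPKM in those of thalamus (0.94 ± 0.28, adjusted p = 0.0246). Spred3 had 8.06 ± 0.582 FPKM in positive and 3.49 ± 1.74 FPKM in negative cells of thalamus (1.13 ± 0.34, adjusted p = 0.0255). The thalamus calls of these genes were fragile. They held in 11 (Flrt2), 13 (Lrig1) and 12 (Spred3) of 20 alternative settings. Among the losses, that of Flrt2 came without any 1 of the mice (0.0511 to 0.0883). The call of Lrig1 was lost without mouse 1, 2 or 4 (0.144, 0.0879 and 0.0591). That of Spred3 was lost without mouse 2, 3 or 4 (0.0608, 0.0869 and 0.0933) or without any 1 positive library (0.0506 to 0.0635). In thalamus Lrig1, Flrt2 and Spred3 had lower levels in negative cells in 4 of 4 mice. Spred3 was not called between the gates of spinal cord (0.37 ± 0.34, adjusted p = 0.496).

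**Figure D5:**
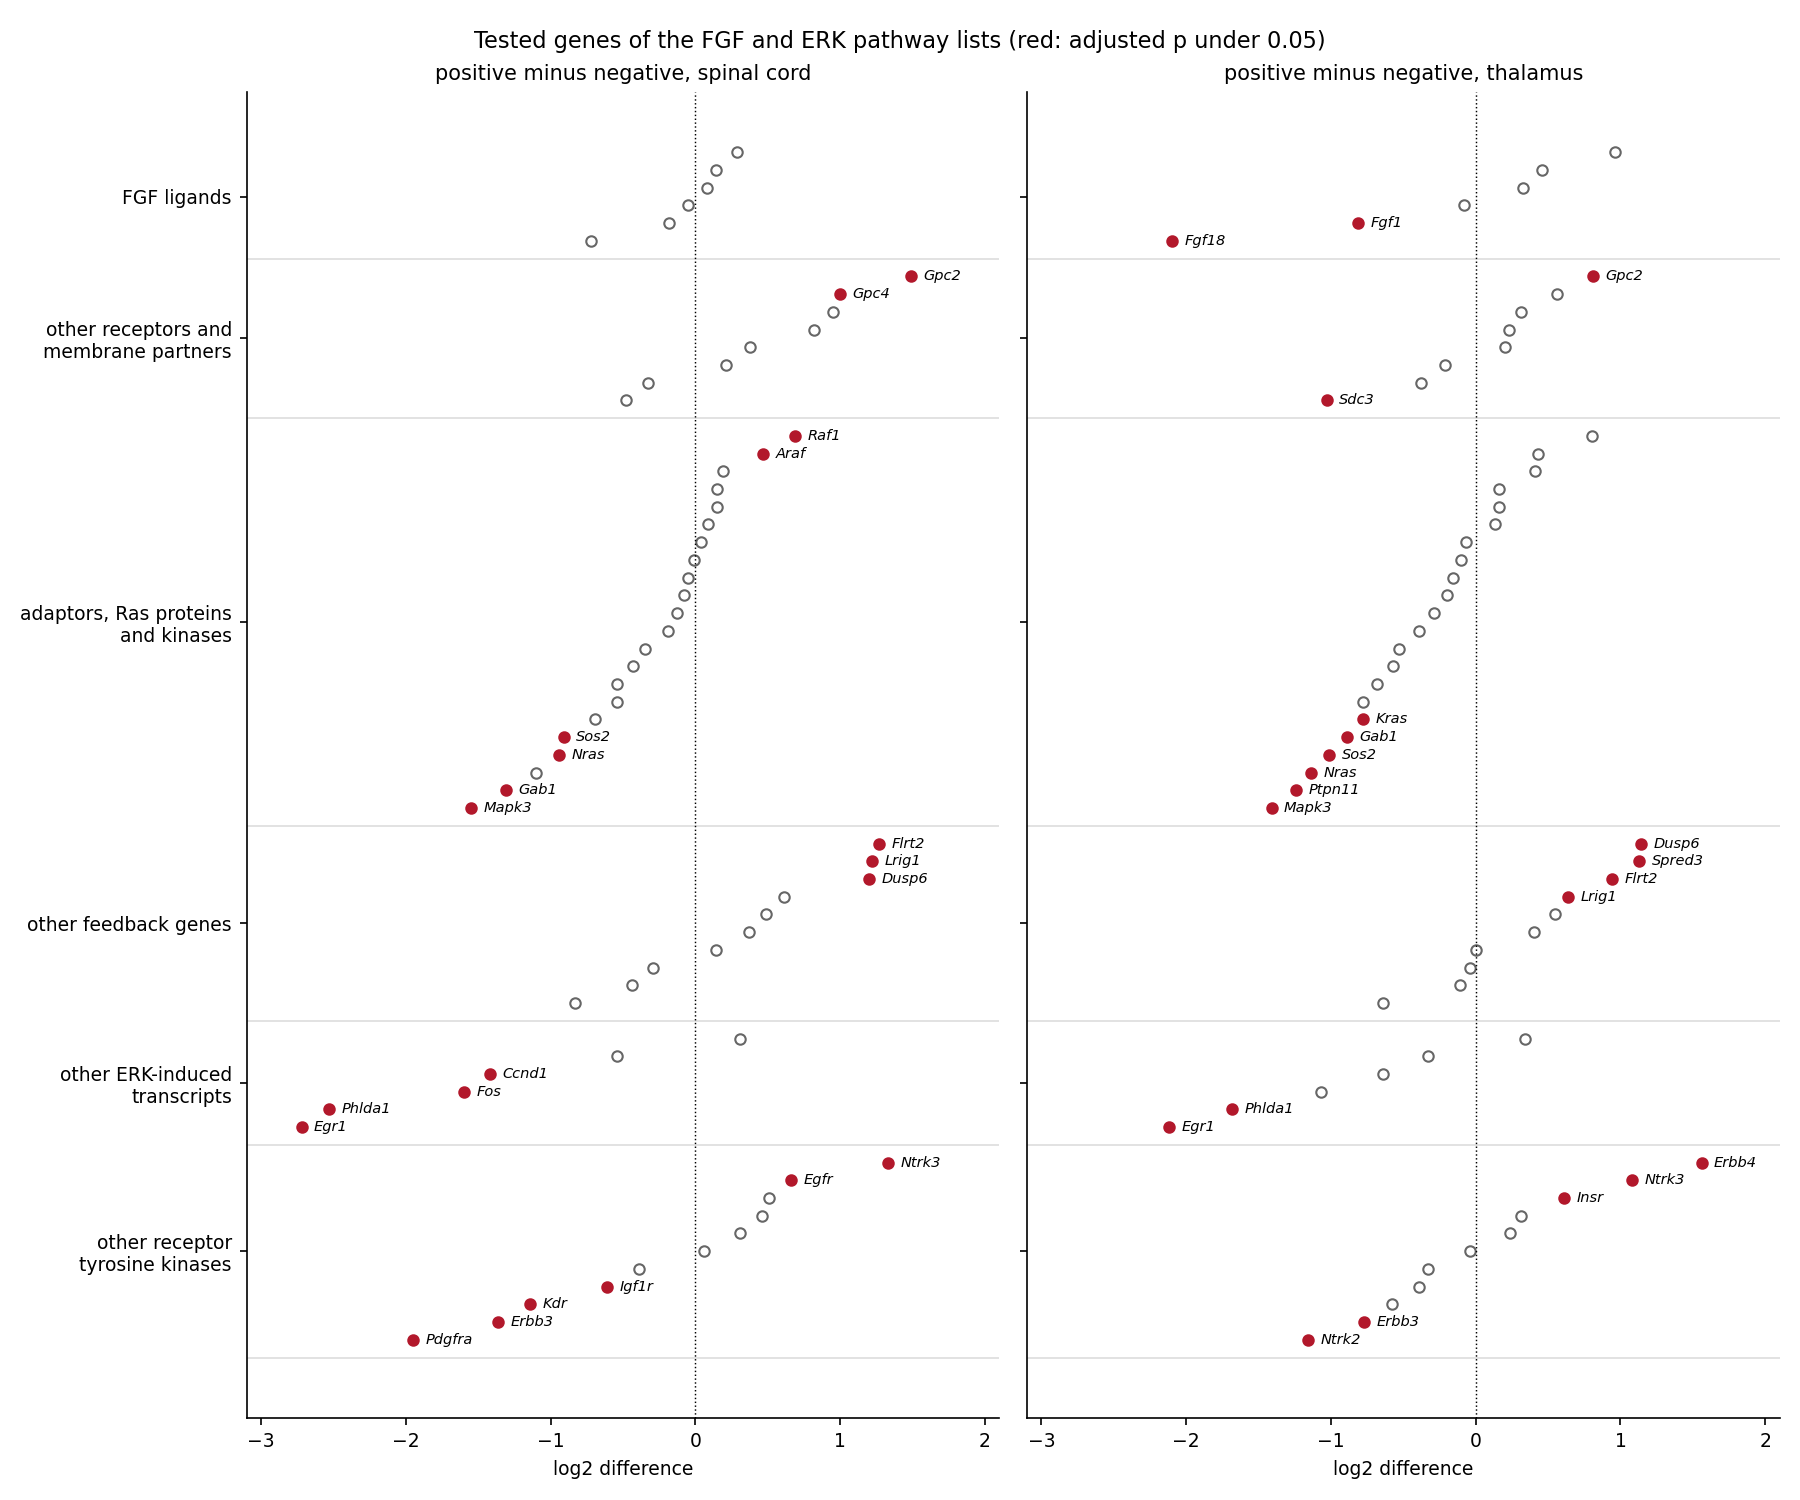
Log2 differences between positive and negative cells (x axes) of the tested genes of 6 pathway lists, in spinal cord and thalamus, with 1 point per gene, ordered by difference within a list and filled red with its symbol where the adjusted p is under 0.05. All red points of the feedback list lie above 0 and all red points of the ERK-induced list lie below 0.

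Of 10 other transcripts that ERK signalling induces, 6 passed the filter. In positive cells of spinal cord 0 rose and 4 fell, beside 19.6% of all features called. In those of thalamus 0 rose and 2 fell, beside 25.2%. Egr1, an immediate early transcription factor, had 1.31 ± 0.479 and 17.2 ± 11.7 FPKM in positive and negative cells of spinal cord (-2.72 ± 0.43, adjusted p = 0.000447), and 3.51 ± 1.62 and 18.3 ± 4.66 FPKM in those of thalamus (-2.12 ± 0.43, adjusted p = 0.00265). Phlda1 fell by 2.53 ± 0.45 in spinal cord (adjusted p = 0.00111) and by 1.68 ± 0.45 in thalamus (adjusted p = 0.0142), the thalamus call being lost without mouse 3 (0.0989), without mouse 4 (0.111) and with only those groups (0.0622). Fos fell by 1.60 ± 0.44 in spinal cord (adjusted p = 0.0191) and was lower in positive cells of 3 of 4 mice. Its call held in 13 of 19 alternative settings. Among the losses were those without mouse 1, 2 or 4 (0.0995, 0.0833 and 0.104), and without mouse 1 the difference was -0.97. The cyclin Ccnd1 fell by 1.42 ± 0.37 in spinal cord (adjusted p = 0.0138), a call lost without mouse 2, 3 or 4 (0.0827, 0.0663 and 0.064). The 12 immediate early genes summed to 31.1 to 43.3 FPKM in spinal cord positive and 61.2 to 136 FPKM in spinal cord negative libraries, and to 19.5 to 29.2 and 49.2 to 87.8 FPKM in positive and negative libraries of thalamus; what the sorting itself adds to them was not tested.

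Among 12 other receptor tyrosine kinases that feed into Ras and ERK, 11 passed the filter. In positive cells of spinal cord 2 rose and 4 fell, beside 19.6% of all features called. In those of thalamus 3 rose and 2 fell, beside 25.2%. Ntrk3, a neurotrophin receptor, rose in both, with 103 ± 11.4 and 41.9 ± 12.0 FPKM in positive and negative cells of spinal cord (1.33 ± 0.25, adjusted p = 0.00144), and 92.2 ± 12.6 and 44.8 ± 16.6 FPKM in those of thalamus (1.08 ± 0.25, adjusted p = 0.00535, lost without mouse 2 at 0.0714). Its relative Ntrk2 had 370.4 ± 47.1 and 833 ± 160 FPKM in positive and negative cells of thalamus (-1.16 ± 0.18, adjusted p = 0.000334). Pdgfra, which marks oligodendrocyte precursors, had 0.252 ± 0.111 and 4.47 ± 3.26 FPKM in positive and negative cells of spinal cord (-1.95 ± 0.32, adjusted p = 0.000547; -3.48 with a pseudocount of 0.1). Erbb4 and Insr rose in thalamus, by 1.56 ± 0.42 (adjusted p = 0.0139, 0.0575 to 0.12 without mouse 2, 3 or 4) and 0.61 ± 0.17 (adjusted p = 0.0162, 0.139 without mouse 4). Egfr rose by 0.66 ± 0.20 (adjusted p = 0.0318) and Igf1r fell by 0.61 ± 0.19 (adjusted p = 0.0358) in spinal cord, and leaving out mouse 2, 3 or 4 ended both calls (0.0999 to 0.247), as did leaving out most of the single libraries.

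Genes whose pattern over the 16 libraries was most like that of a member were looked up by Pearson's r of log2(FPKM + 1), as a description of libraries that share mice and groups. The protein-coding genes most like Fgfr3 were Ptplad1 (r = 0.96) and the acyl-CoA synthetase gene Acsl3 (r = 0.95). Ptplad1 averaged 126 and 57.3 FPKM in positive and negative cells of spinal cord, and 93.1 and 60.4 FPKM in those of thalamus. Trak1 (r = 0.95) and the GABA transporter gene Slc6a11 (r = 0.88) were most like Etv5, and Mbd4 (r = 0.90) and F2r (r = 0.89) most like Fgfr1. For Fgfr2, Spry1, Spry2, Spry4, Spred1 and Etv4 the first of these genes had an r between 0.81 and 0.93.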

How the data were processed

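RNA from sorted astrocytes was lysed in RLT+, extracted with a Qiagen RNeasy kit and amplified to cDNA for sequencing with NuGEN reagents, per the labels' protocols. The build GRCm38 and the tools Cuffnorm, Cufflinks, HTSeq 0.6.1p1, DESeq2, Bowtie2 2.2.3, TopHat2 2.0.11 and FastQC are named in the submitters' processing notes, with no order. The authors deposited FPKM per gene and library. They also deposited a table of 444 features with normalized mean signal, log2 fold changes, test scores and p-values, of which only what is credited to it was used. No read counts per gene were used, so precision comes from the spread between libraries.

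Features that reached 1 FPKM in 4 or more libraries were kept, and their log2(FPKM + 1) values were fitted with limma 3.58.1 (R 4.3.3; trended variance, 1 coefficient per group, all 16 libraries), with Benjamini-Hochberg adjustment over 16340 features and a threshold of 0.05. The fit was tried on simulated data in which each gene had the same spread in all groups. That trial therefore does not cover the unequal spread between groups seen here. Coordinates are from GENCODE vM21 unless credited to RefSeq. The mouse number in the labels pairs libraries of 1 animal; deviations from group means had a mean r of 0.036 between libraries of the same mouse (-0.013 to 0.092, 24 pairs) and -0.012 between others. Alternatives were another pseudocount, filter, scaling or sample set, the mouse as a block, and leaving out each library or mouse. Each pathway list names up to 4 called genes per region whose higher group averaged 2 FPKM or more, or, where none is called, the 2 most abundant. The 9 genes, the lists and the tests were chosen with earlier results of these data known.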

Additional observations from a re-analysis of the deposited data

Results flagged for a closer look

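Among 140 groups of 4 libraries checked for a value far from the other 3, 7 stood out, which is what chance alone gives in about 1 of 20 groups. For Spry2, the thalamus negative library of mouse 3 had 21.6 FPKM where the others had 40.3 to 43.99 FPKM, and the spinal cord negative library of mouse 1 had 59.7 FPKM where the others had 21.0 to 23.9 FPKM. The Spred3 value of mouse 4 in thalamus positive cells, 8.92 FPKM, stood above 7.65 to 7.85 FPKM, and that of mouse 1 in thalamus negative cells, 0.894 FPKM, stood below 4.16 to 4.58 FPKM. Fos had 7.43 FPKM in the thalamus negative library of mouse 2, against 3.80 to 4.32 FPKM in the others. Nras had 33.7 FPKM in the spinal cord positive library of mouse 3, against 40.6 to 40.8 FPKM. Ntrk3 had 111 FPKM in the thalamus positive library of mouse 2, against 84.6 to 88.0 FPKM. The gate difference of Fgf1 differed between regions by a test of that difference, 0.95 ± 0.20 on the log2 scale, spinal cord minus thalamus (limma, adjusted p = 0.0204); the call was lost in 8 of 27 alternative settings, among them the protein-coding rescaling (0.75, adjusted p = 0.0514).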

How the results depend on the processing

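Differences between 2 groups were recomputed under 20 other settings (19 for genes that a stricter filter removes) and the interaction under 27, and the Fgfr3 calls between gates held in all 20. Log2 differences of uncalled genes near 0 changed sign. After the protein-coding rescaling, Fgfr1 between the gates of thalamus became 0.269; Fgfr2 became 0.22 between the gates of thalamus, 0.055 between those of spinal cord, -0.165 in the interaction and -0.107 between regions in positive cells; Spred1 became 0.199 between the gates of thalamus and -0.259 between regions in positive cells; Fgfr3 between regions in negative cells and Spry2 in the interaction became -0.063 and -0.055. With a pseudocount of 0.1, Spry4 between regions in positive cells became 0.001. Leaving out 1 library or mouse, the difference between the gates of thalamus ran from -0.11 to 0.028 for Fgfr1, from -0.202 to 0.585 for Spry1, from -0.213 to 0.229 for Spry2, from -0.044 to 0.543 for Spry4, from -0.201 to 0.0 for Spred1 and from -0.121 to 0.584 for Etv5. Between the gates of spinal cord it ran from -0.145 to 0.003 for Fgfr2 and from -0.186 to 0.848 for Fgf2. In the interaction it ran from -0.042 to 0.112 for Fgfr2 and from -0.055 to 0.489 for Spry2. Between regions it ran, in positive cells, from -0.367 to 0.118 for Spry2, from -0.099 to 0.105 for Spry4 and from -0.045 to 0.102 for Spred1, and, in negative cells, from -0.249 to 0.152 for Fgfr3, from -0.469 to 0.571 for Spry1 and from -0.369 to 0.236 for Etv5.

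The protein-coding rescaling called 2 of the 9 genes between the gates of thalamus and 2 between those of spinal cord, beside 5219 and 3279 of 16435 features. It called 1 between regions in positive cells and 2 in negative cells, beside 1357 and 1616 features. With only the groups compared in the fit, 3 of the 9 genes were called between the gates of spinal cord, beside 3423 of 16340 features. Between regions, 3 were called in positive cells and 0 in negative cells. The features called between regions numbered 4227 in positive cells (996 with all groups) and 353 in negative cells (1603). Why the counts between regions moved with the groups in the fit was not tested. A filter at 5 FPKM also lowered the number of features tested, and the interaction then called 271 of 10469 features, against 418 of 16340. Leaving out libraries or mice, 1 to 2 of the 9 genes were called between the gates of each region, 0 in the interaction and between regions in positive cells, and 0 to 2 in negative cells; the features called ranged from 2249 to 4855 and from 1861 to 3006 between the gates of thalamus and spinal cord, from 129 to 659 in the interaction, and from 368 to 838 and from 976 to 1808 between regions in positive and negative cells. With the mouse as a replicate block, 4107 and 3205 features were called between the gates of thalamus and spinal cord and 343 in the interaction, and no call of the 9 genes changed; among the genes of the pathway lists the block ended the thalamus call of Gpc2 and added spinal cord calls of Errfi1 and Sdc4, and it changed no other; the block with median-of-ratios scaling, chosen after seeing the data, gave 4108, 3190 and 359. Of 37 results for named genes of the pathway lists, 17 lost their call in at least 1 setting. The 37 include Fgf1 and Fgf2 between the gates of spinal cord, which had no call to lose. Read depth was not analysed here, so what it limits is unknown.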

Other observations

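Some other genes of the pathway differed between regions; they were singled out after their values were seen. Errfi1, which encodes the ErbB receptor inhibitor MIG6, had 147 ± 29.3 FPKM in spinal cord positive and 10.3 ± 2.15 FPKM in thalamus positive cells, and 97.1 ± 24.4 and 7.82 ± 2.76 FPKM in negative cells of spinal cord and thalamus (SD, n = 4 each). The log2 difference between regions was 3.71 ± 0.25 in positive cells (limma, adjusted p = 3.43e-07) and 3.49 ± 0.25 in negative cells (adjusted p = 5.2e-07). It was called in all 20 alternative settings of each comparison, between 3.32 and 3.83.

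Fgfrl1, a receptor without a kinase domain, had 26.9 ± 3.23 and 7.75 ± 0.911 FPKM in positive cells of spinal cord and thalamus, a log2 difference of 1.67 ± 0.36 (adjusted p = 0.0118) that was called in 18 of 20 alternative settings (highest adjusted p 0.108). Flrt1 had 48.9 ± 4.86 and 23.0 ± 2.13 FPKM in the same groups (1.06 ± 0.20, adjusted p = 0.00486; 19 of 20 settings, highest adjusted p 0.0533). Fgf1 had 86.2 ± 6.59 and 38.98 ± 3.37 FPKM in the same groups (1.13 ± 0.14, adjusted p = 0.000174; 20 of 20 settings). In negative cells the regional differences of Fgfrl1, Flrt1 and Fgf1 did not pass, at 1.04 ± 0.36, 0.57 ± 0.20 and 0.17 ± 0.14 (adjusted p = 0.0878, 0.0933 and 0.525).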
